A study of Malus domestica with 9 samples.

Results

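The peel of apple fruit (Malus domestica) after 24 h of light was compared with the peel at 0 h, when the bags that had covered the fruit were taken off. Of 46558 genes listed, 25133 (54.0%) had a mean of at least 1 FPKM over the 3 libraries at 24 h and the 3 at 0 h, and these are the genes described here. FPKM is by definition the number of fragments for each kilobase of a transcript and each M (mega) of mapped fragments, a level corrected for gene length. In the deposited values the denominator was below the reads in genes in every 24 h library and above them in every 0 h library. All libraries came from fruit grown in bags. The 24 h group had been in light for 24 h after unbagging, and the 0 h group for 0 h. Another 3 libraries from 6 h of light helped to estimate the spread and are used below only to place levels in time. The sources used here do not name the cultivar or the kind of light, nor whether each library came from its own fruit, tree or pool, so p-values measure the spread among these libraries, which may be technical. No fruit kept in the bag for the same day was sampled, so light, bag removal and a further day on the tree or in storage cannot be told apart. The groups lie at the same nominal time of day.

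Apple peel is a thin layer of epidermis, cuticle and underlying cells that carries the fruit's colour. Under a bag it stays pale or green, and on exposure to light it makes anthocyanins, red pigments of the flavonoid pathway whose enzyme genes are switched on by MYB transcription factors. Light also acts on chlorophyll, wax and sugar metabolism, and on protection against ultraviolet radiation. The deposited table identifies genes by apple locus identifiers alone. None of them occurs in the RefSeq gene table at hand (51804 genes, 0 matched), so no function, pathway, sequence or genome coordinate is given for any gene, and the genes behind the pigment change are not singled out. In bulk peel, fewer cells of a type and less RNA per cell cannot be told apart.

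Of the 21425 genes below the limit, 10506 were at 0 in all 6 libraries and 10919 were above 0 with a mean under 1 FPKM. The gene just inside the limit had a mean of 1.0001 FPKM and the gene just outside 0.9998 FPKM. The genes at or above the limit held 99.5% to 99.7% of each library's summed FPKM, and their median level was 9.10 FPKM. A gene could pass through 1 of the groups: 928 had a mean under 1 FPKM at 24 h and 784 at 0 h. Such genes had to differ to be included. Reads worked out from the values numbered 18.3 ± 1.13 M (SD, n = 3) per library at 24 h and 16.6 ± 1.29 M (SD, n = 3) at 0 h. For a gene of 1537 bases, the median length, 1 read was worth 0.0342 to 0.0403 FPKM. The third 24 h library stood apart from the others and is described further on, and counts are given with and without it.

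After a day of light 3006 genes were called higher (12% of those tested) and 2025 lower (8.06%), together 5031 or 20%. A gene was called at a limma Benjamini-Hochberg adjusted p under 0.05 and an absolute difference of at least 1 on the log2(FPKM + 1) scale. Leaving out the third 24 h library gave 2945 higher (11.7%) and 1694 lower (6.74%). Of the genes called higher, 92.7% were also called without that library, against 74.3% of the genes called lower. Among the calls 59.7% were higher on the deposited scale, and 47.8% when every library was divided by its summed FPKM. That scaling put the median log2 difference of all genes at -0.16. The adjusted p alone was passed by 59.5% of the tested genes, 9926 of them with a difference under 2-fold. In 64.5% of all tested genes the 24 h libraries did not overlap the 0 h libraries. Among the called genes this was 99.7% of those higher and 99.1% of those lower.

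The rises reached further than the falls. The median log2 difference was 1.65 in the genes called higher, with 25% of them above 2.35, and -1.32 in the genes called lower, with 25% below -1.61. On the log2(FPKM + 1) scale 1076 called genes were over 4-fold higher, 164 over 16-fold and 20 over 64-fold. In the other direction 206 were over 4-fold lower, 3 over 16-fold and 0 over 64-fold. When the third 24 h library was left out, 1064 genes were over 4-fold higher and 190 over 4-fold lower. The pseudocount of 1 bounds how far a low gene can fall on this scale, and the number of deep falls depended on it. With a pseudocount of 0.1, 576 called genes were over 4-fold lower and 22 over 16-fold, and limma-voom on reads gave 635 and 36. The genes over 4-fold lower were 10.2% of the lower calls as reported, 19.9% with the pseudocount of 0.1 and 21.0% by voom. Rises over 16-fold numbered 306 with the pseudocount of 0.1 and 338 by voom, so they outnumbered the falls of that size in both.

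**Figure D1:**
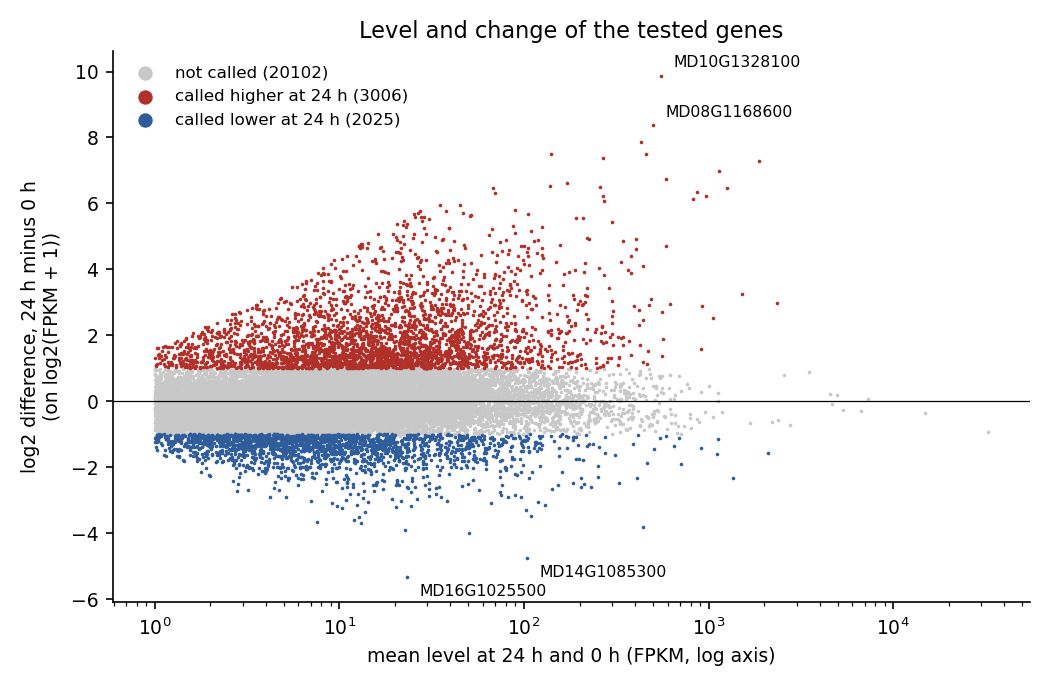
Each point is 1 of the 25133 tested genes, with its mean level at 24 h and 0 h in FPKM on a log axis and its log2 difference, 24 h minus 0 h. The 3006 genes called higher (red) reach a difference of 9.87, while the 2025 called lower (blue) end at -5.34; the genes with the largest rises and falls are labelled.

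The genes called higher became a large part of the transcript pool. They held 27.1%, 27.0% and 26.6% of the summed FPKM in the 24 h libraries, against 6.35%, 6.25% and 6.20% in the 0 h libraries. The genes called lower held 3.50%, 3.52% and 3.07% at 24 h, against 11.1%, 11.5% and 11.3% at 0 h. Each value is a description, since the genes were chosen by their change. The third 24 h library had the lowest share of the 24 h libraries in both sets, by less than 1 percentage point. The set of genes called lower changed without that library, however. Their share at 24 h minus that at 0 h was -7.96 percentage points with all libraries. It was -12.0 when that library was left out and the genes called lower without it were taken. These then include MD12G1187100, the highest gene of the peel. That gene alone held 2.90% and 3.11% in the first and second 24 h libraries, against 5.88%, 6.72% and 6.67% in the 0 h libraries. Counted in reads instead of FPKM, the genes called higher held 26.8% ± 0.0175 (SD, n = 3) of the reads in genes at 24 h and 6.53% ± 0.0430 (SD, n = 3) at 0 h.

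**Figure D2:**
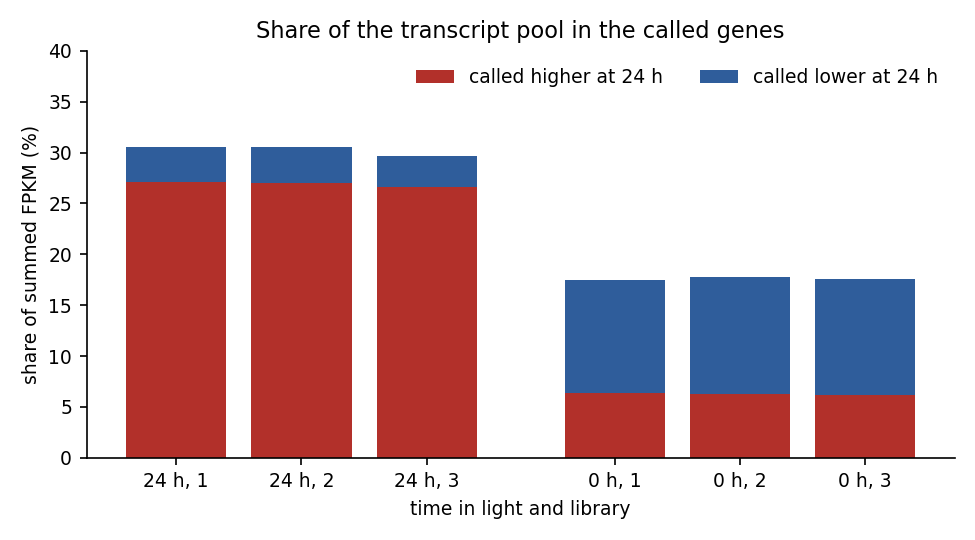
Stacked bars give, for each 24 h library (left) and each 0 h library (right), the percentage of the summed FPKM held by genes called higher (red) and lower (blue) at 24 h. The red part is 26.6% to 27.1% in the 24 h libraries and 6.20% to 6.35% in the 0 h libraries.

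The gain was spread over many genes and the loss over fewer. The genes with a higher mean at 24 h gained 235159 FPKM in all, of which 69.1% lay in genes called higher, and 393 genes made up 50% of the gain. The genes with a lower mean at 24 h lost 138107 FPKM, of which 36.0% lay in genes called lower, and 202 genes made up 50% of the loss. The 10 largest gains, 1491 to 3701 FPKM per gene, were 9.98% of the total. Among these 10 genes, 9 were called higher, and 6 had a mean under 30 FPKM at 0 h. The 10 largest losses were 24.2% of the total, and 5 of these genes were called lower. The third 24 h library summed to 870488 FPKM over all genes, against 704706 and 704052 FPKM in the others and 635836 to 677984 FPKM at 0 h. Without it the gain was 202767 FPKM, with 72.4% in genes then called higher, and the loss 161176 FPKM, with 47.8% in genes then called lower. Of that loss 13.3% lay in MD12G1187100, which was called lower only in the fit without that library, and 34.4% in the other genes then called lower. The numbers of genes that made up 50% were then 410 for the gain and 164 for the loss. Every 24 h library summed higher than every 0 h library, and the excess of the gain over the loss follows from these sums. Gain and loss were not worked out after division by the summed FPKM.

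MD10G1328100 rose most on the log2(FPKM + 1) scale. Its level was 1041, 907 and 1375 FPKM in the 24 h libraries, against 0, 0.511 and 0.0495 FPKM in the 0 h libraries, where it had 13 reads in all, 12 of them in the second library. The gene was thus among the highest of the peel at 24 h, ranked 31 by mean level, and near the detection limit at 0 h. The log2 difference was 9.87 (SE 0.182, limma adjusted p = 2.61e-10), and 9.70 without the third 24 h library. At 6 h it stood at 1402 ± 88.8 FPKM (SD, n = 3).

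MD08G1168600 had 799.5, 850.5 and 1348 FPKM in the 24 h libraries, against 2.01, 2.41 and 1.48 FPKM in the 0 h libraries. Every 24 h library lay far above every 0 h library, and the third was the highest. The log2 difference was 8.37 (SE 0.214, limma adjusted p = 1.15e-09), and 8.13 without the third 24 h library. Its mean was 1.97 FPKM at 0 h, 75.7 FPKM at 6 h and 999.4 FPKM at 24 h, a stepwise course.

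MD16G1025500 fell most on the log2(FPKM + 1) scale. It had 0.170, 0.164 and 0.178 FPKM in the 24 h libraries, which is 1 read in each, against 43.9, 46.8 and 48.4 FPKM in the 0 h libraries with 863 reads. Only 3 reads were thus left, and the level at 0 h was 272 times that at 24 h by reads, with an exact 95% counting interval of 92.8 to 1322 that covers counting error alone. The log2 difference on the log2(FPKM + 1) scale was -5.34 (SE 0.280, limma adjusted p = 1.23e-07). With a pseudocount of 5 it was -3.31, a smaller fall than the -4.16 of MD14G1085300.

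MD14G1085300 had 6.55, 6.65 and 6.47 FPKM in the 24 h libraries, against 195.2, 193.4 and 216.7 FPKM in the 0 h libraries. The 24 h libraries agreed closely, with the third no different from the others. The log2 difference was -4.74 (SE 0.0751, limma adjusted p = 1.9e-10). This gene was at 20.5 FPKM at 6 h, between its levels at 0 h and 24 h.

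Genes outside the naming rule were also singled out after their values were seen. MD13G1200600 had the largest gain in FPKM. It stood at 3525, 3369 and 4277 FPKM in the 24 h libraries, against 23.4, 24.9 and 20.2 FPKM in the 0 h libraries. All 24 h libraries lay far above, with a difference of 7.28 log2 units (SE 0.142, limma adjusted p = 3.18e-10). By mean level it was 11th at 24 h and 5131st at 0 h. MD12G1187100 was the highest gene in both groups and had the largest loss, 14.6% of the total. It stood at 20418, 21882 and 25358 FPKM in the 24 h libraries, against 37368, 45384 and 45216 FPKM in the 0 h libraries. The groups did not overlap, but the log2 difference of -0.92 was not called (SE 0.923, limma adjusted p = 0.41). That SE depends on the intensity trend in the prior variance and does not measure the scatter of this gene's libraries alone. Its level was 22553 ± 2537 FPKM (SD, n = 3) at 24 h and 42656 ± 4580 FPKM (SD, n = 3) at 0 h. Without the third 24 h library the difference was -1.01 and called (limma adjusted p = 0.00676). Over all alternatives its adjusted p ran from 0.000378, in the limma fit without an intensity trend, to 1, and in that fit the difference of -0.92 was still under the limit of 1.

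**Figure D3:**
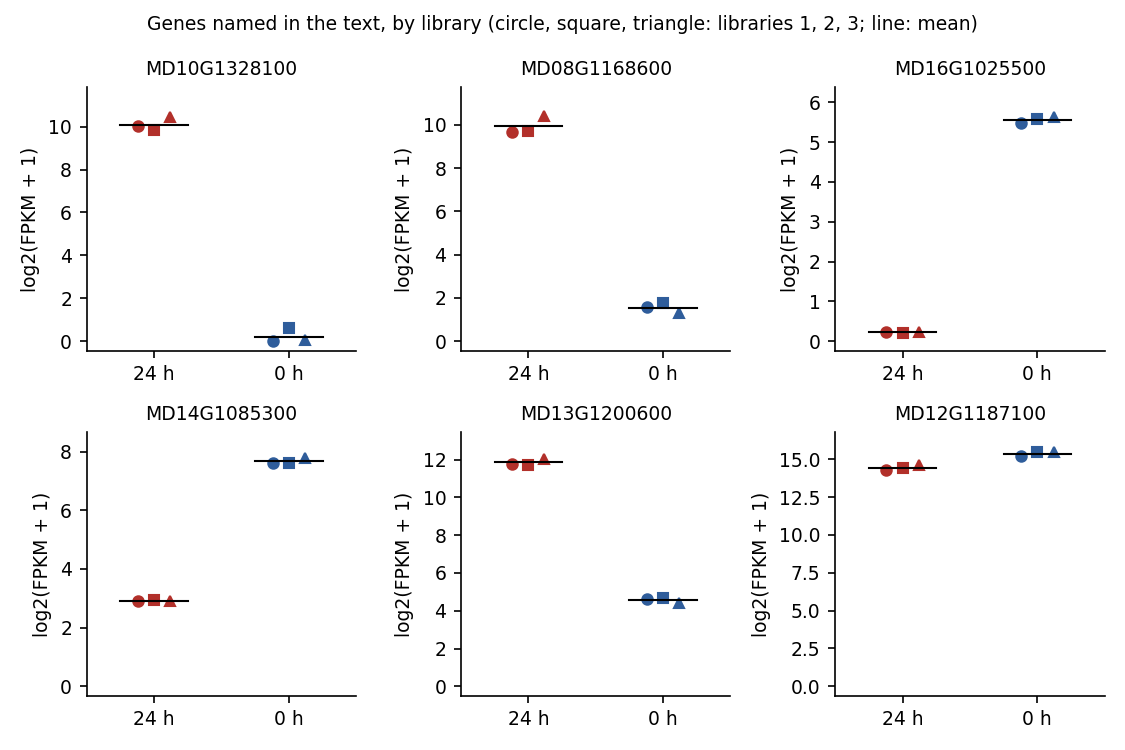
Level on the log2(FPKM + 1) scale of the 6 genes named above in the 24 h libraries (red, left) and the 0 h libraries (blue, right), with a line at each mean. Libraries of the groups do not overlap in any panel, and the difference is smallest in MD12G1187100.

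Some calls fell on genes with neighbouring identifiers. In this naming scheme the digits after MD stand for the chromosome and the number after G follows the order along it. MD00 holds unplaced genes, so there the number gives no order along a chromosome. Tested genes were taken in the order of their identifiers, MD00 included. In that order 86 runs of 3 or more neighbours were called higher (284 genes, 9.45% of those called higher). Called lower were 66 runs (228 genes, 11.3%). With the third 24 h library left out, the numbers of runs were 87 and 39. The longest held 5 genes called higher and 6 called lower. A run of 6 called lower lay in MD00, and without the third 24 h library 1 of its genes was also called. Whether there were more runs than unlinked genes would give was not tested. Whether neighbours are near-identical copies was not checked, and how the authors' counting split reads between such copies is not given, so the value of a single gene in a run is uncertain.

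The run that gained most, singled out after its values were seen, lay between MD04G1003000 and MD04G1003400. Its 3 genes summed to 4325, 4555 and 7002 FPKM in the 24 h libraries, against 57.6, 52.2 and 53.3 FPKM in the 0 h libraries. These 3 genes thus held 0.688% of the summed FPKM at 24 h and 0.00821% at 0 h. All 3 were called, with log2 differences of 6.22 to 7.51 (limma adjusted p at most 1.83e-09). MD16G1025500, described above, stood in a run of 5 called lower. The run summed to 914.4, 873.7 and 1545 FPKM at 24 h, against 3147, 3558 and 3332 FPKM at 0 h. Its log2 differences lay between -5.34 and -1.56 (limma adjusted p at most 0.000429). Most of the sum came from MD16G1024700, which had 889, 849 and 1511 FPKM at 24 h, against 2894, 3285 and 3077 FPKM at 0 h. MD13G1200600, the gene with the largest gain in FPKM, also stood in a run, of 4 called higher from MD13G1200100 on. The means of that run summed to 3775 FPKM at 24 h and 24.3 FPKM at 0 h, most of it in MD13G1200600.

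Every identifier group held calls in both directions. The share of tested genes called higher ran from 9.77% in MD00, which holds unplaced genes, to 13.6% in MD16, beside 12% overall. The share called lower ran from 6.86% in MD14 to 10.03% in MD00, beside 8.06% overall. In MD00 the share called lower was 7.87% without the third 24 h library.

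Some genes were clearly expressed at 24 h and had almost no transcript at 0 h. The mean of 109 genes was 5 FPKM or more at 24 h and under 0.5 FPKM at 0 h. In the opposite direction 12 genes were under 0.5 FPKM at 24 h and at 5 FPKM or more at 0 h. These counts were 108 and 15 without the third 24 h library. Of the 109 genes, 33 were already at 5 FPKM or more at 6 h. With no read at all at 0 h, 36 genes reached 1 FPKM or more on average at 24 h, the highest 54.96 FPKM. With no read at 24 h, 8 genes had averaged 1 FPKM or more at 0 h, the highest 5.58 FPKM. Such genes were picked by their values and passed the limit of 1 FPKM through the group where they are high, so the counts are a description.

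The share of genes called higher grew with the level. It was 5.45% of 2790 genes with a mean of 1 to 2 FPKM, 7.49% at 2 to 5, 9.32% at 5 to 10, 15.4% at 10 to 50, 20.7% at 50 to 200 and 24.6% of 422 genes at 200 FPKM or more. The lowest and highest classes had 5.34% and 23.2% without the third 24 h library. The level is the mean over the same 6 libraries that give the difference, so a gene's own rise lifts its class. The part of this in the order by level was not tested. The pseudocount makes calls in the lowest classes harder to reach. By limma-voom on reads the share called higher was 11.4%, 10.9% and 11.4% in the classes under 10 FPKM and then 16.6%, 20.9% and 24.6%, so the increase lay above 10 FPKM. The share called lower ran from 6.64% at 10 to 50 FPKM to 10.6% at 2 to 5 FPKM as reported, with no order by level, but this too depended on the setting. By voom it dropped with level up to 50 FPKM, with 21.6% at 1 to 2 FPKM, 18.1% at 2 to 5, 11.1% at 5 to 10 and 7.39% at 10 to 50. A pseudocount of 0.1 gave 20.5%, 16.9%, 10.5% and 7.27%. At 50 to 200 FPKM these settings gave 8.55% and 8.60%. Cyclic loess normalization gave the opposite order, with 3.69% at 1 to 2 FPKM, 7.16%, 7.96%, 8.13% and then 10.7% at 50 to 200. At 200 FPKM or more the share called lower was 8.06% after that normalization. On the log2(FPKM + 1) scale and without the third 24 h library it was highest at 200 FPKM or more, at 11.1% against 7.58% with all libraries, and was 7.78% at 2 to 5 FPKM.

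Short genes were called lower more often than long ones. Lengths were worked out from the values, as the smallest whole number of bases that makes all reads of a gene whole, so a gene whose reads share a common factor can get a fraction of its length. Of 3030 genes under 700 bases 16.01% were called lower, against 8.84% at 700 to 1500 bases, 6.47% at 1500 to 2500 and 4.18% of 4637 genes of 2500 bases or more. These shares were 13.2%, 7.40%, 5.60% and 3.28% without the third 24 h library. The shortest class had the largest share called lower and the longest the smallest also by voom, with 22.3% and 7.70%, and after cyclic loess normalization, with 13.9% and 4.14%. The order also held among genes with a mean of 10 to 50 FPKM, where 16.3% of 728 genes under 700 bases and 3.41% of 1703 genes of 2500 bases or more were called lower. The share called higher was 11.3%, 14.4%, 12.3% and 7.07% in the 4 classes. Over all genes of a class the median log2 difference was -0.23 under 700 bases and -0.02 at 2500 bases or more. At 0 h the first library stood -0.07 log2 units from the others in the genes under 700 bases and 0.08 in those of 2500 bases or more, so libraries of 1 time differed by length too, and the part of this in the result was not tested. Short genes also had fewer reads, with a median of 44.6 per library against 481.8 in the longest class, and a larger median SE, 0.201 against 0.117 log2 units.

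**Figure D4:**
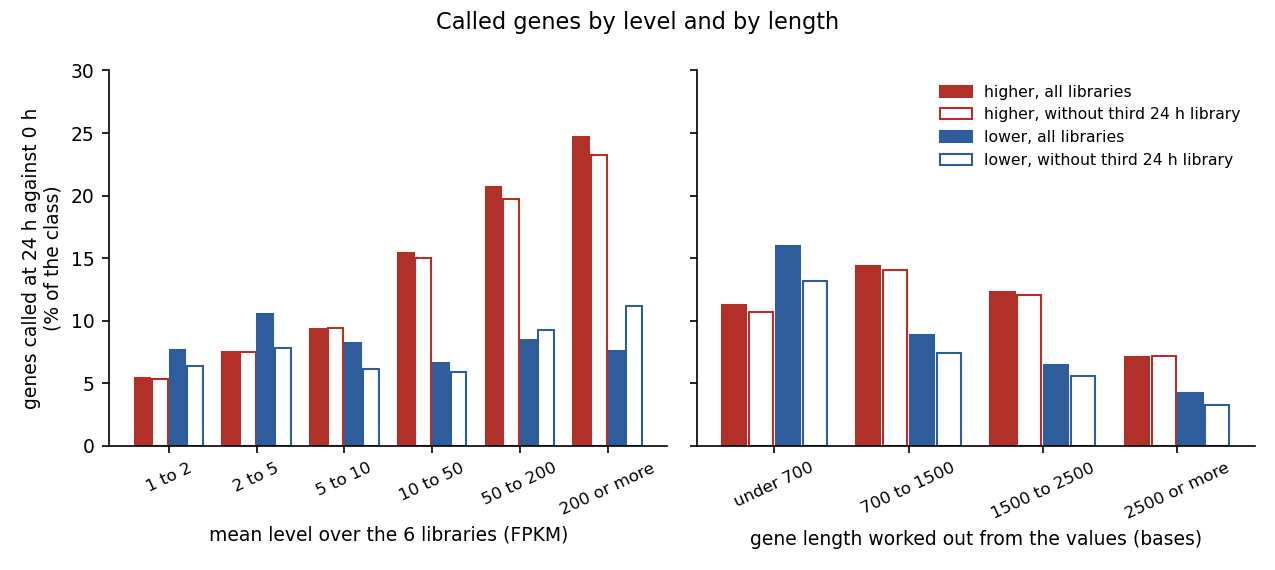
Bars give the percentage of tested genes called higher (red) and lower (blue) at 24 h against 0 h, by mean level in FPKM (left) and by gene length in bases (right). Filled bars use all libraries and open bars leave out the third 24 h library. The share called higher climbs to 24.6% with level, a mean that includes the 24 h values, and the share called lower drops with length to 4.18%.

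The third 24 h library differed from the others by level. On the log2(FPKM + 1) scale its median difference from the mean of the first and second 24 h libraries was -0.12 in genes of 1 to 2 FPKM and -0.12 at 2 to 5 FPKM. It was 0.10 at 10 to 50 FPKM, 0.31 at 50 to 200 and 0.54 at 200 FPKM or more. These values are on the deposited scale. Reads in genes divided by the FPKM denominator were 1.21 in this library, against 1.02 and 1.03 in the first and second. Relative to shares of the reads in genes, that factor raised its FPKM at every level. The differences by level were not worked out without it. The 0 h libraries stayed within -0.12 to 0.06 of each other on the same measure. The third library was more than 2-fold below the mean of the others in 1159 genes and more than 2-fold above it in 134, while the first and second differed by more than 2-fold in 86 genes. The library had 23661 genes at 1 FPKM or more, against 24706 and 24704 in the other 24 h libraries and 24822 to 24884 at 0 h.

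This library also went further from 0 h in the genes called lower. Their median log2 difference from the 0 h mean was -1.26, -1.23 and -1.60 in the first, the second and the third 24 h libraries. In the genes called higher it was 1.65, 1.65 and 1.72. In 56.9% of the genes called lower the third library was the lowest of the 24 h libraries, and in 41.8% of all tested genes. The genes called lower were chosen with the third library included, and 74.3% of them were also called without it. That choice favours genes in which this library is low, so the values for the called genes are a description. The labels give no batch, so the part of RNA quality, sampling or library preparation in the position of the third library was not tested.

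**Figure D5:**
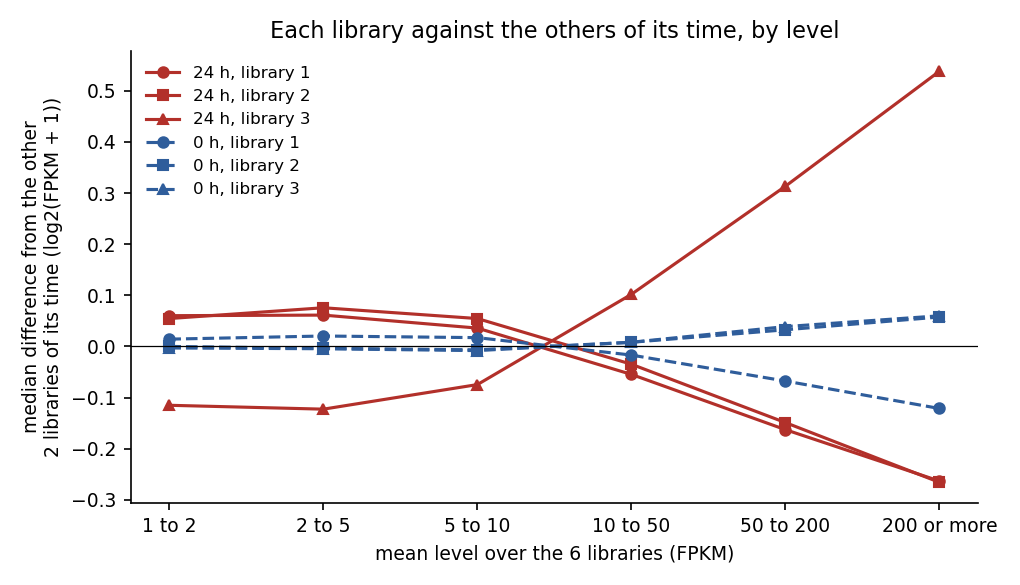
Lines give, by class of mean level in FPKM, the median difference of each library from the mean of the other 2 libraries of its time on the log2(FPKM + 1) scale, 24 h in red and 0 h in blue. The third 24 h library climbs to 0.54 at 200 FPKM or more on the deposited scale. The first and second 24 h libraries mirror it, since it is among the libraries they are set against.

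The 10 most abundant transcripts took a smaller share of the pool at 24 h, and most of the drop lay in 1 gene. In each library the 10 genes with the highest FPKM held 9.34%, 9.36% and 11.9% of the summed FPKM in the 24 h libraries, against 14.1%, 15.3% and 15.4% in the 0 h libraries. All 24 h libraries were below all 0 h libraries (exact permutation test, two-sided, p = 0.1, the smallest that 3 against 3 allow). MD12G1187100 alone held 2.90%, 3.11% and 2.91% at 24 h, against 5.88%, 6.72% and 6.67% at 0 h. The other 9 genes held 6.45%, 6.25% and 8.95% at 24 h, against 8.22%, 8.56% and 8.71% at 0 h, and here the groups overlapped through the third 24 h library (exact permutation test, two-sided, p = 0.4). At the same time 1145, 1145 and 1451 genes were at 100 FPKM or more in the 24 h libraries, against 908, 972 and 975 in the 0 h libraries (exact permutation test, two-sided, p = 0.1). This count is on the deposited scale, which summed higher in every 24 h library. The number of genes that made up 50% of the summed FPKM was 1259, 1284 and 842 at 24 h, against 1063, 944 and 943 at 0 h. Here the groups overlapped, and the third 24 h library was the lowest of the 6 (exact permutation test, two-sided, p = 0.4).

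A part of the transcriptome moved little. For 8201 genes (32.6%) the 95% confidence interval of the limma log2 difference lay within 1.5-fold either way. Their median level was 10.4 FPKM, and 4224 of them had a mean of at least 10 FPKM. A difference too small to leave this range was still past an adjusted p of 0.05 in 1330 of these genes. The remaining 11901 genes (47.4%) were neither called nor steady. The steady genes numbered 10056 without the third 24 h library. Their number also depended on the scale, with 6310 at a pseudocount of 0.1, 14731 at a pseudocount of 5 and 7508 after division by the summed FPKM.

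The levels at 6 h place the day's change in time. The genes called higher had median levels of 5.81 FPKM at 0 h, 11.0 FPKM at 6 h and 25.6 FPKM at 24 h, and their median log2 differences were 0.58 for 6 h minus 0 h and 1.65 for 24 h minus 0 h. The genes called lower had median levels of 11.1 FPKM at 0 h, 5.86 FPKM at 6 h and 3.61 FPKM at 24 h, with median log2 differences of -0.82 and -1.32. Both differences rest on the same 0 h libraries, and 6 h lies at another time of day. Of all tested genes 14.6% were called at 6 h against 0 h. The genes were chosen for their change at 24 h, so the medians are a description.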

How the data were processed

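The authors deposited FPKM per gene for 9 libraries, 3 each at 0 h, 6 h and 24 h of light. HISAT2 and Cufflinks are named in the submitters' processing notes; the versions, the genome build, the annotation, any filters and the strandedness of the counting were not stated there (not given in the sources used here). Per the labels' protocols, total RNA was isolated with Trizol reagent and sequenced as Illumina mRNA libraries.

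Whole reads were worked out from the steps of the deposited FPKM values. For all 37142 genes above 0 in the 9 libraries every value lay within 0.05 of a whole read, and the reads rebuilt the FPKM to a relative difference of 6.91e-08. They served for depth, lengths and 1 alternative. The denominators in the FPKM, 16.2 to 19.0 M, were not the reads in genes (15.3 to 19.5 M). Reads in genes divided by the denominator gave 0.911, 0.941 and 0.936 at 0 h and 0.961, 0.985 and 0.971 at 6 h. At 24 h the values were 1.02, 1.03 and 1.21. Relative to shares of the reads in genes, FPKM was thus raised in every 24 h library and lowered in every 0 h library. Division by the summed FPKM removes this factor, and 47.8% of the calls were then higher.

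Tests used limma 3.58.1 in R 4.3.3 on log2(FPKM + 1), with a mean per time over all 9 libraries (6 residual degrees of freedom) and an intensity trend in the prior variance. Adjustment was over all 25133 tested genes. Both the limma fit and the read recovery were tested on simulated data. No simulated library stood apart by level, so these tests do not cover the position of the third 24 h library. Named genes were the 2 largest rises and the 2 largest falls on the log2 scale among called genes whose libraries did not overlap, that were also called without the third 24 h library and had a higher mean of at least 10 FPKM (2180 genes higher and 849 lower qualified). The 2 per direction follow from the unmatched identifiers, and gene lists by function were not run for the same reason. Genes and rules were chosen with earlier results of these data known. Alternatives were other pseudocounts, filters, scalings, weights and fits, and leaving out each library.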

Additional observations from a re-analysis of the deposited data

How the results depend on the processing

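Of the genes called as reported, 0 were called in the other direction under any alternative. MD10G1328100, MD08G1168600, MD16G1025500, MD14G1085300 and MD13G1200600 kept their calls under all 23 alternatives. MD12G1187100 was called with library weights, with summed FPKM as the denominator and without the third 24 h library. Quantile normalization set its difference to 0 by construction, since it ranked first in every library. A pseudocount of 5, which shrinks low genes by construction, left 2697 calls, 1978 higher and 719 lower (73.3% higher), and 14731 steady genes. The filter at a mean of 5 FPKM leaves fewer genes to test and gave 1275 lower (66.0% higher), and no filter gave 16248 steady genes. Adjusted p alone called 14957 genes, 7941 higher and 7016 lower (53.1% higher). The share of higher genes was 54.9% with a pseudocount of 0.1, 63.2% with library weights, 47.8% with summed FPKM as the denominator, 52.8% after quantile normalization, 61.4% at an adjusted p under 0.01 and 54.1% when limma-voom was run on reads; the cause was not tested. Voom and cyclic loess normalization were chosen after seeing the data. They called 6596 and 4870 genes. Without each library in turn there were 4639 to 5398 calls, 2945 to 3089 higher and 1694 to 2312 lower (57.1% to 63.5% higher) and 6899 to 10056 steady genes. The fewest calls came without the third 24 h library, where 24 h minus 0 h in share of summed FPKM was -12.0 percentage points for the genes then called lower and -8.40 for those not called. MD12G1187100 was then among the genes called lower, and with all libraries it was among those not called. Deviations of same-numbered libraries correlated at 0.0773, -0.0625 and -0.0303 across genes, and with the replicate block 5037 genes were called. With 3 libraries per time these values cannot show whether same-numbered libraries were paired, which the sources used here do not state. The top-10 share, -4.73 percentage points at 24 h minus 0 h, was -5.57 to -4.31 without 1 library. Apart from MD12G1187100, a choice made after seeing the data, it was -1.28, and the groups then overlapped in the 10, 50 and 100 highest genes. Depth limits the low genes most, with a median of 32 reads per library at 1 to 2 FPKM.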
